A study of Mus musculus with 18 samples.

Results

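The 50 genes described here encode the main components of TGF-β and BMP signaling and a set of its early targets. They were taken by symbol from a table of counts for 54532 genes in 10T1/2 cells, a multipotent mouse mesenchymal line, and every symbol was found. By role they comprise 9 ligand genes, 5 genes for latency and ligand processing, 11 receptor genes, 6 SMAD genes, 10 intracellular inhibitor genes, 5 secreted antagonist genes and the 4 *Id* genes as direct targets. Of the 50, 49 were among the 14317 genes that passed the low-count filter. The remaining member, *Bmp2*, had 0 counts in all 18 libraries.

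Cells were WT or carried a CRISPR-Cas9 knockout of *Foxs1*, a forkhead transcription factor, in FOXS1 KO clone 1 or clone 2, each grown from a single edited cell. Each genotype was grown past confluence and sampled either uninduced (labelled Control) or after TGF-β1 (1 nM, 12 h) followed by 48 h of DMII, an adipogenic mix of insulin, dexamethasone, indomethacin and the phosphodiesterase inhibitor 3-isobutyl-1-methylxanthine. There were 3 libraries in each of the 6 groups, and the study asked how loss of FOXS1 changes the response of such cells when a fibrotic and an adipogenic stimulus meet. A stimulated group differs from its uninduced group by both stimuli, so their effects cannot be told apart. Each clone stands for a single edited cell, whatever its number of libraries, and nothing in the labels says that libraries of a group came from separate cultures, so p-values measure only the spread between these libraries.

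TGF-β ligands are secreted in a latent complex, tethered to the matrix by latent TGF-β binding proteins, and act once released. Ligands of the family bind pairs of type II and type I receptor kinases. TGF-βs and activins signal mainly through SMAD2 and SMAD3, and BMPs through SMAD1, SMAD5 and SMAD9, in each case with SMAD4. The pathway induces many of its own brakes, among them SMAD7, SKIL and PMEPA1. In adipose and mesenchymal progenitors, TGF-β and activin are known to oppose adipogenesis, BMP4 to favor commitment to it, and *Id* genes to be classical targets of BMP signaling.

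Expression is given as CPM (library-scaled counts) after TMM scaling, as 3 library values or as mean ± SD (n = 3). Differences are log2 fold changes with their SE from the quasi-likelihood test of edgeR. A signed value with ± and no unit is such a log2 fold change ± SE. Every adjusted p below comes from that test, with Benjamini-Hochberg adjustment over all 14317 genes, unless another fit is named. Values from DESeq2, from another filter or without a library were adjusted over the genes of that fit. A gene is called higher or lower where its adjusted p is below 0.05 and its absolute log2 fold change is above 1. Library totals ran from 15576685 to 42005596 counts, and a group without counts was set to a floor of 3 counts summed over its libraries, or 0.0354 to 0.0603 CPM. That floor and the counting intervals below cover counting error only.

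RNA of the targeted gene did not fall with the genotype labels. *Foxs1* stood at 1.81, 3.25 and 1.64 CPM in uninduced and 3.13, 2.55 and 1.85 CPM in stimulated WT libraries. In the libraries labelled FOXS1 KO it stood at 26.7, 27.1 and 23.4 CPM (clone 1, uninduced), 53.6, 52.9 and 56.8 CPM (clone 1, stimulated), 21.1, 22.9 and 23.9 CPM (clone 2, uninduced) and 38.8, 38.0 and 42.8 CPM (clone 2, stimulated). RNA counts over a gene do not measure its protein. Every library labelled KO was above every WT library, so each direction between genotypes rests on the labels, and "clone 1" and "clone 2" below mean the libraries labelled so.

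Markers of other cell types were checked in the same libraries. All 8 fibroblast markers had counts in each group, but their means were not all above 1 CPM. Such a mean was reached by 7 of them in stimulated clone 1 and uninduced clone 2, and by 6 in stimulated clone 2. *Thy1* stood at 59.6 and 49.0 CPM in uninduced and stimulated WT and at 184 and 161 CPM in clone 1. In clone 2 it had 51 and 17 counts (0.616 and 0.342 CPM). *Lum* stood at 0.467 and 0.537 CPM in the stimulated clones, below every stimulated WT library. In any library, 8 endothelial markers summed to at most 7.92 CPM and 8 haematopoietic markers to at most 1.85 CPM. For 8 epithelial markers the highest sum was 3.73 CPM, and *Ptprc*, *Cd3e* and *Cldn5* were at 0 in all groups. The 8 adipocyte markers summed to 93.6 to 103 CPM in uninduced and 14.9 to 16.9 CPM in stimulated WT cells, where *Adipoq* and *Plin1* were at 0. They summed to 51.9 to 57.4 and 93.8 to 111 CPM in clone 1 and to 59.7 to 63.0 and 37.3 to 48.6 CPM in clone 2. The 8 smooth muscle markers summed to 301 to 334 CPM in uninduced and 2049 to 2213 CPM in stimulated WT cells. In clone 1 they summed to 463 to 474 CPM uninduced and 340.2 to 354 CPM stimulated. The sums in clone 2 were 260 to 266 CPM uninduced and 343 to 392 CPM stimulated. The smooth muscle sums are mostly *Acta2*, encoding smooth muscle α-actin, which stood at 2036 ± 84.4 CPM (SD, n = 3) in stimulated WT and at 308 ± 7.30 and 323 ± 23.0 CPM in the stimulated clones, while *Lmod1* of the same list went from 9.06 to 2.98 CPM in WT. Of the adipocyte list, *Pparg* stood at 4.18 ± 0.365 CPM in stimulated WT and at 35.0 ± 1.49 and 20.1 ± 2.41 CPM in the stimulated clones. *Lpl* of the same list was not higher in the clones, at 3.97 ± 0.388 CPM in stimulated WT and 0.216 ± 0.213 and 3.14 ± 0.642 CPM in the stimulated clones. These genes moved with the groups that the pathway genes are compared over, and their part in those differences was not tested. In bulk RNA, fewer cells of a type and less RNA per cell cannot be told apart.

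Compared per kilobase of gene length, the uninduced WT cells expressed a TGF-β receiving apparatus led by *Tgfbr2*, the type II TGF-β receptor (76.2 ± 3.01 CPM per kb), then *Bmpr1a*, a type I BMP receptor (30.0 ± 1.005), and endoglin (*Eng*, 13.1 ± 0.142). From *Tgfbr3* (11.9 ± 0.598) through *Acvr1*, *Tgfbr1* and *Acvr1b* to *Bmpr2* (7.97 ± 1.77), the library values of each receptor gene overlapped those of the next, so their order is not resolved. *Acvr2a* (2.44 ± 0.360), *Acvr2b* (0.781 ± 0.0517) and *Acvrl1* (0.125 ± 0.152), which encodes ALK1, came last. Among SMAD genes *Smad4* was highest (29.3 ± 1.35 CPM per kb), *Smad3* and *Smad5* overlapped (20.04 ± 1.05 and 19.7 ± 1.19), and *Smad9* was lowest (1.52 ± 0.0489). *Ski*, encoding a SMAD corepressor, led the intracellular inhibitors at 39.9 ± 1.59 CPM per kb.

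**Figure D1:**
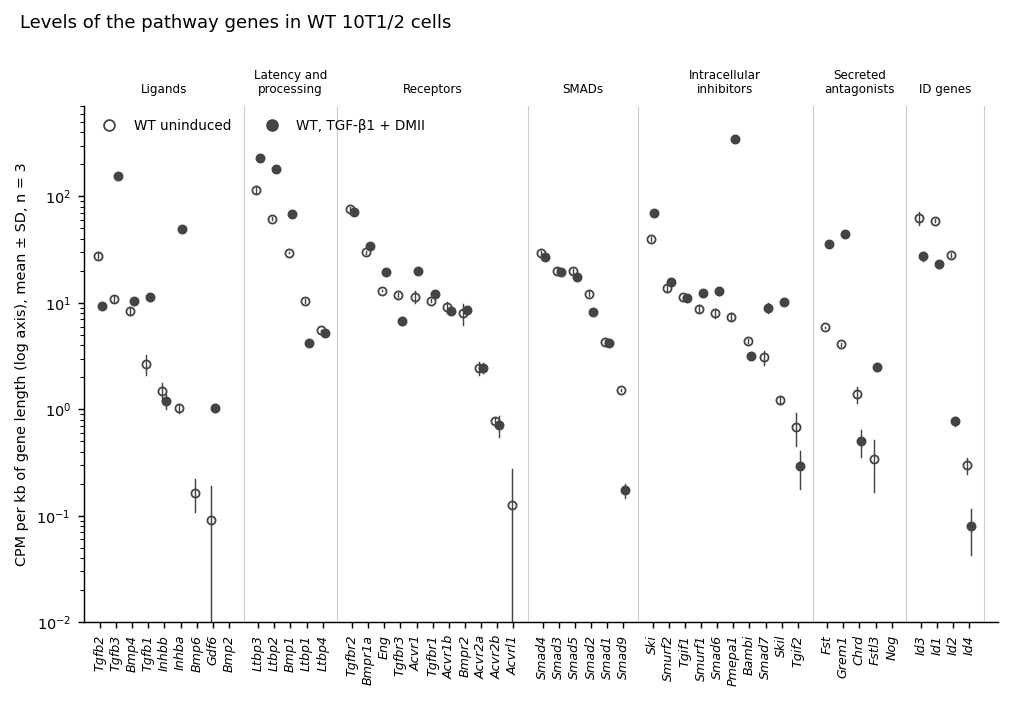
Mean CPM per kilobase of gene length ± SD (log axis, n = 3) of the members in uninduced (open) and TGF-β1 + DMII stimulated (filled) WT cells, ordered by uninduced level within each role, with groups of 3 counts or fewer left out. *Pmepa1*, *Inhba*, *Tgfb3* and *Skil* sit far above their uninduced level after stimulation and *Id2* and *Smad9* far below, while the open and filled points of most receptors and of *Smad1* to *Smad5* lie close together.

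TGF-β1 + DMII moved a large share of the pathway genes in WT cells. Of the 49 tested, 12 were called higher and 11 lower, beside 6.25% called higher and 13.6% called lower over all 14317 genes. The risers were 4 ligand genes (*Tgfb1*, *Tgfb3*, *Inhba*, *Gdf6*), *Ltbp2*, *Bmp1*, the inhibitors *Smad7*, *Skil* and *Pmepa1*, and the antagonists *Grem1*, *Fst* and *Fstl3*. The genes that fell were *Tgfb2*, *Bmp6*, *Ltbp1*, *Acvrl1*, *Smad9*, *Tgif2*, *Chrd* and all 4 *Id* genes. The median over the 49 was 0 on the log2 scale, beside −0.04 over all tested genes, with *Nog*, which had no counts in WT, entered as 0.

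In clone 1 the same stimulus raised 14 members and lowered 6, where 5.95% and 10.7% of all tested genes were called. In clone 2 it raised 13 and lowered 8, where the shares over all genes were 6.46% and 11.2%. *Tgfb1*, *Tgfb3*, *Inhba*, *Ltbp2*, *Smad7*, *Skil*, *Pmepa1* and *Fst* rose in all 3 genotypes, and *Tgfb2*, *Ltbp1*, *Smad9*, *Acvrl1*, *Chrd* and *Id2* fell in all 3. The medians were 0.18 in clone 1 and 0.15 in clone 2, beside −0.02 over all genes in each, with *Gdf6* entered as 0 in clone 2.

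**Figure D2:**
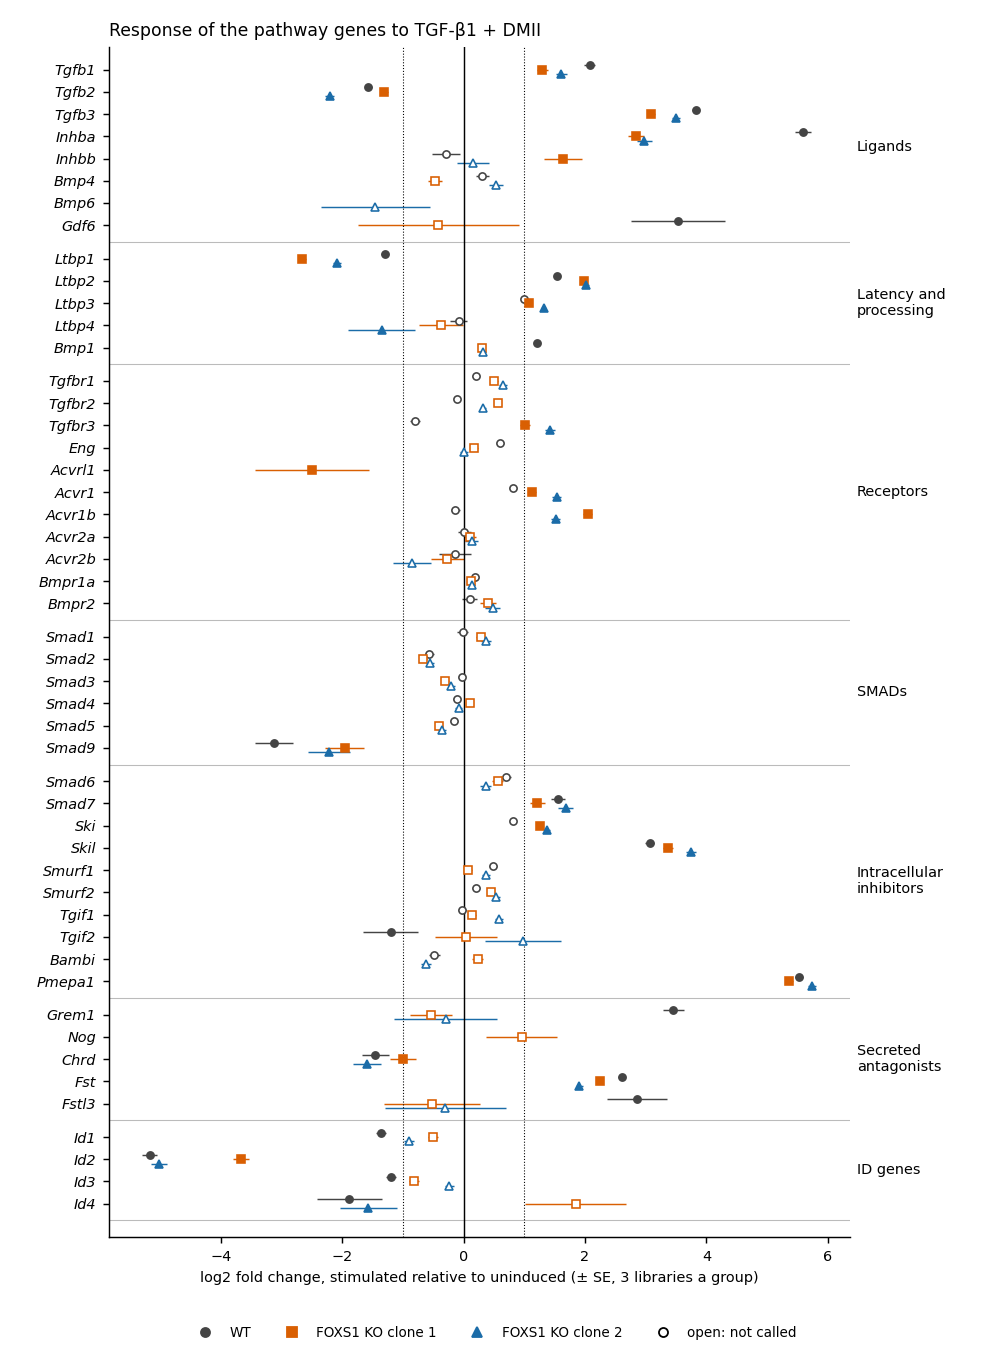
Log2 fold change (± SE) of each tested member after TGF-β1 + DMII in WT (circles), FOXS1 KO clone 1 (squares) and clone 2 (triangles), 3 libraries a group, with filled symbols for called genes, dotted lines at the fold threshold and values resting on a group of 3 counts or fewer left out. *Pmepa1* lies at 5.37 to 5.74 in all 3 genotypes, *Inhba* at 5.59 in WT against 2.84 and 2.98 in the clones, and *Grem1* and *Fstl3* are right of the threshold in WT and near 0 in the clones.

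Without stimulation, 3 members were higher and 8 lower in clone 1 than in WT, where 6.32% and 8.73% of all genes were called. In clone 2, 1 was higher and 9 were lower, beside 5.54% and 9.56%. Both clones shared 6 falls, *Inhbb*, *Ltbp4*, *Smad9*, *Tgif2*, *Grem1* and *Fstl3*, and no rise, where 5.78% of all genes fell and 3.28% rose in both. *Id4* was called in opposite directions.

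After stimulation, 5 members were higher and 7 lower in clone 1 (9.42% and 9.6% of all genes), and 4 higher and 9 lower in clone 2 (7.95% and 8.94%). In both clones *Tgfbr3*, *Acvr1b* and *Acvr2a* were higher, and *Inhba*, *Gdf6*, *Ltbp4*, *Grem1* and *Fstl3* lower, where 5.26% of all genes were higher and 5.77% lower in both. The WT libraries are common to the comparisons of clone 1 and clone 2, so the calls of one are not independent of those of the other.

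The interaction term asked which responses themselves differed from WT. It called 6 members with a higher and 4 with a lower response in clone 1 (5.34% and 3.46% of all genes), and 3 and 3 in clone 2 (4.89% and 2.96%). *Tgfbr3* and *Acvr1b* had a higher response in both clones, and *Inhba*, *Grem1* and *Fstl3* a lower one, where 3.12% and 1.6% of all genes did so. Dropping the fold threshold, with an adjusted p below 0.05 alone, raised the number of members called to 38 in the WT response, 36 and 39 in the responses of clone 1 and clone 2, 37 and 36 in the uninduced clones, 37 and 39 in the stimulated clones, and 31 and 27 in the differences in response. The shares over all genes were then 60.7%, 54.5% and 55.8% for the responses, 53.5% and 53.2% uninduced, 58.9% and 56% stimulated, and 31.6% and 31.2% for the differences in response. In both clones and 1 direction it called 26 members uninduced, 27 stimulated and 20 for the difference in response, beside 34.3%, 38.3% and 20.8% of all genes.

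**Figure D3:**
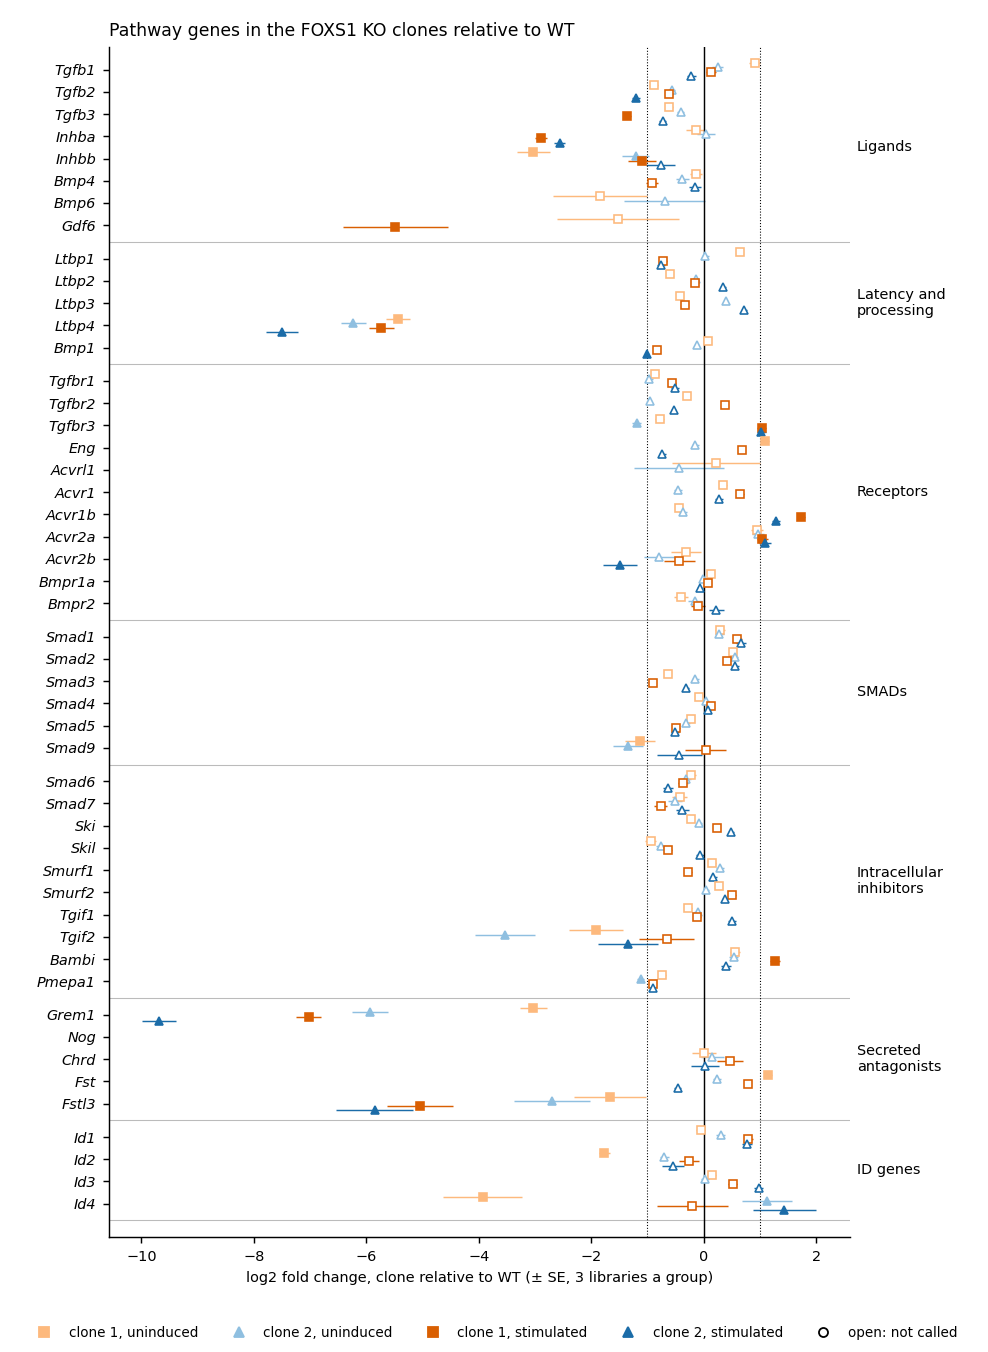
Log2 fold change (± SE) of each tested member in clone 1 (squares) and clone 2 (triangles) relative to WT, uninduced (pale) and stimulated (dark), 3 libraries a group, with filled symbols for called genes, dotted lines at the fold threshold and values resting on a group of 3 counts or fewer left out. *Ltbp4* and *Grem1* lie farthest left in each stimulated clone. *Acvr1b* lies left of 0 but within the fold threshold uninduced, and at 1.74 and 1.29 after stimulation.

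Among the ligands, *Inhba* encodes the βA subunit that dimerizes to form activin A. WT libraries held 6.29, 6.08 and 7.32 CPM uninduced and 332, 314 and 310.5 CPM stimulated. In clone 1 the libraries held 7.68, 3.81 and 6.52 CPM uninduced and 39.0, 45.4 and 44.7 CPM stimulated. Clone 2 libraries held 7.14, 6.16 and 7.13 CPM uninduced and 50.1, 52.2 and 59.5 CPM stimulated. Uninduced libraries of the 3 genotypes overlapped, whereas every stimulated WT library lay far above every stimulated library of a clone. *Inhba* rose by 5.59 ± 0.13 in WT (adjusted p = 4.59e-19), by 2.84 ± 0.14 in clone 1 and by 2.98 ± 0.13 in clone 2. The difference in response was −2.75 ± 0.20 in clone 1 (adjusted p = 6.27e-10) and −2.61 ± 0.19 in clone 2 (adjusted p = 5.12e-10).

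*Tgfb3* and *Tgfb1* encode TGF-β isoforms. *Tgfb3* went from 36.3, 40.0 and 35.1 to 511, 552 and 508 CPM in WT libraries. It went from 22.7, 26.7 and 23.1 to 203, 211 and 201 CPM in clone 1 and from 27.1, 28.1 and 28.8 to 334, 319.5 and 293 CPM in clone 2. All stimulated libraries were above all uninduced ones, and among the stimulated the order WT, clone 2, clone 1 held without overlap. The rises were 3.82 ± 0.06, 3.08 ± 0.07 and 3.50 ± 0.06, and stimulated clone 1 was lower than WT (−1.36 ± 0.06, adjusted p = 9.72e-19), while clone 2 differed by −0.73 ± 0.06, short of the fold threshold.

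*Tgfb1* libraries held 11.1, 16.7 and 12.8 CPM in uninduced and 55.7, 61.6 and 53.9 CPM in stimulated WT cells. They held 25.6, 25.9 and 24.6 CPM uninduced and 62.8, 63.6 and 60.4 CPM stimulated in clone 1, and 15.7, 15.7 and 17.0 CPM uninduced and 50.5, 47.7 and 49.1 CPM stimulated in clone 2. Stimulated WT and clone 1 overlapped and stimulated clone 2 lay just below both, and clone 1 was the highest group before stimulation. Its rises were 2.08 ± 0.10 in WT (adjusted p = 1.11e-17), 1.29 ± 0.09 in clone 1 and 1.61 ± 0.09 in clone 2. The uninduced difference of clone 1 from WT was 0.91 ± 0.10, not called, and became a call at 1.08 without uninduced WT replicate 2.

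*Tgfb2* moved against the other 2 isoforms, from 161 ± 8.89 to 54.2 ± 3.44 CPM in WT, 87.7 ± 0.909 to 35.3 ± 2.13 CPM in clone 1 and 108 ± 1.34 to 23.4 ± 2.23 CPM in clone 2. It fell in all 3 genotypes (−1.57 ± 0.06, −1.31 ± 0.07 and −2.21 ± 0.07) and was lower in stimulated clone 2 than in WT (−1.21 ± 0.07). Per kilobase, *Tgfb2* thus made up 67.1% ± 2.76 of the summed level of the 3 isoforms in uninduced WT cells and 5.34% ± 0.301 after stimulation, and *Tgfb3* 26.4% ± 1.43 and 88.2% ± 0.343. The exchange was seen in the clones as well, with *Tgfb3* at 76.6% ± 0.112 in stimulated clone 1 and 87.1% ± 1.05 in stimulated clone 2. *Tgfb1* held 15.6% ± 0.265 in stimulated clone 1, against 6.45% ± 0.147 in WT, and these library values do not overlap. Its share was already 18.4% ± 0.261 in uninduced clone 1, against 6.47% ± 1.34 in uninduced WT. In clone 2 it was 10.6% ± 0.311 uninduced and 9.12% ± 0.488 stimulated. *Bmp4* was not called in any comparison (group means 12.2 to 23.2 CPM).

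*Inhbb* encodes the βB subunit of activin B. WT libraries held 7.28, 5.03 and 6.59 CPM uninduced and 4.45, 4.88 and 6.09 CPM stimulated. Clone 1 libraries held 0.461, 0.912 and 0.932 CPM uninduced and 2.88, 2.58 and 1.73 CPM stimulated, and clone 2 libraries 2.12, 2.92 and 3.30 CPM uninduced and 3.14, 2.42 and 3.49 CPM stimulated. Every uninduced library of a clone was below every uninduced WT library. *Inhbb* was lower uninduced in clone 1 (−3.03 ± 0.29, adjusted p = 5.31e-10) and clone 2 (−1.21 ± 0.25, adjusted p = 0.000119), and rose on stimulation in clone 1 (1.63 ± 0.31), where the WT value was −0.29 ± 0.24 and not called. That difference in response was called in clone 1 (1.93 ± 0.39, adjusted p = 0.000268) and was 0.44 ± 0.35 in clone 2. The call in stimulated clone 1 (−1.10 ± 0.25) slipped to −0.96 without stimulated WT replicate 3 and −0.91 without stimulated clone 1 replicate 3.

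*Gdf6* and *Bmp6*, both BMP-family ligand genes, were near the counting floor. *Gdf6* had 19 counts over the uninduced and 241 over the stimulated WT group, at 0.699, 0 and 0.267 CPM uninduced and 3.67, 3.37 and 3.97 CPM stimulated. It had 6 and 5 counts in clone 1 and 0 in all 6 clone 2 libraries. After stimulation each WT library was above 3 CPM and each clone library below 0.3 CPM. The WT rise was 3.53 ± 0.78 (adjusted p = 0.000501), which DESeq2 did not call (adjusted p = 0.167). Stimulated clone 1 differed from WT by −5.48 ± 0.93 (adjusted p = 3.09e-05), and clone 2 was at least 60.8-fold lower against the floor. In uninduced cells the clone 2 level was at least 8.58-fold lower, a call that DESeq2 did not make (adjusted p = 0.051).

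*Bmp6* fell from 39 to 3 counts in WT, a ratio of 13.7 (95% exact binomial counting interval 4.35 to 69.2), at 0.582, 0.891 and 0.457 CPM uninduced and 0, 0.130 and 0 CPM stimulated (adjusted p = 0.00236). In clone 1 it was at 0.205, 0 and 0.311 CPM uninduced and 0, 0 and 0.137 CPM stimulated, and in clone 2 at 0.535, 0.354 and 0.232 CPM uninduced and 0.224, 0.0654 and 0.120 CPM stimulated. Neither clone's fall was called. Leaving out stimulated clone 1 replicate 3, which held all 3 of its group's counts, made the fall in clone 1 a call.

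**Figure D4:**
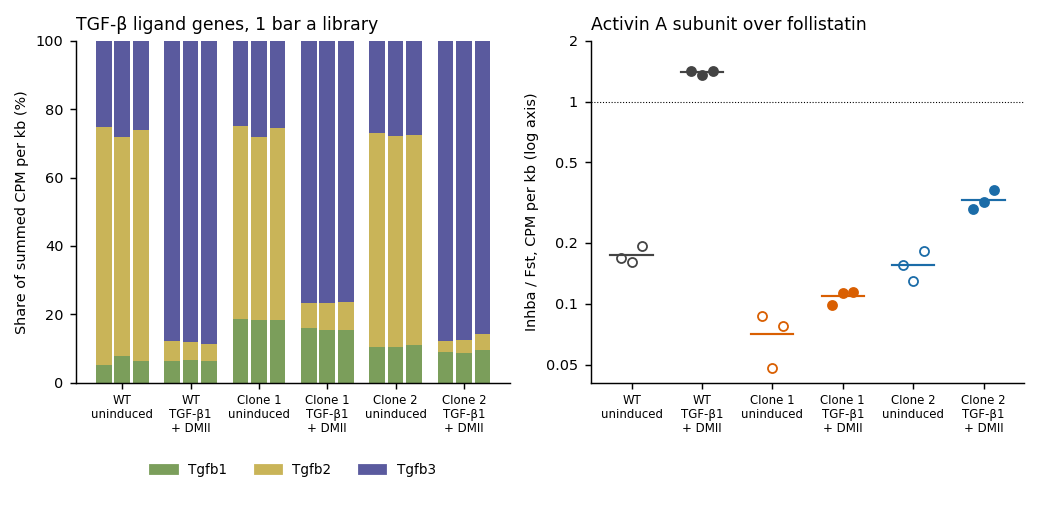
Left, share of *Tgfb1*, *Tgfb2* and *Tgfb3* in their summed CPM per kilobase, as 1 stacked bar for each of the 18 libraries. Right, *Inhba* over *Fst* in CPM per kilobase in each library (log axis, lines are group means), where stimulated WT libraries lie at 1.40 ± 0.0302 and all others below 0.4.

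Of the latency and processing genes, *Ltbp4* encodes a latent TGF-β binding protein of elastic fibers and was set apart by genotype. WT libraries held 35.6, 36.3 and 35.6 CPM uninduced and 34.8, 35.2 and 31.4 CPM stimulated. Clone 1 libraries held 0.615, 1.23 and 0.621 CPM uninduced and 0.319, 0.811 and 0.683 CPM stimulated, and clone 2 libraries 0.491, 0.443 and 0.464 CPM uninduced and 0, 0.131 and 0.421 CPM stimulated. Every WT library was above 31 CPM and every clone library below 1.3 CPM, in both treatments. The uninduced differences were −5.44 ± 0.21 in clone 1 (adjusted p = 7.59e-19) and −6.23 ± 0.22 in clone 2 (adjusted p = 6.33e-20), and the stimulated ones −5.73 ± 0.22 and −7.50 ± 0.28. Its fall on stimulation in clone 2 (−1.35 ± 0.55) rested on 40 and 9 counts and was lost without any of 4 single libraries (uninduced replicates 1 and 3, stimulated replicates 1 and 2, −0.72 to −1.37).

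*Ltbp1* fell and *Ltbp2* rose in all 3 genotypes. *Ltbp1* went from 109 ± 4.47 to 44.0 ± 2.80 CPM in WT and from 169 ± 9.16 to 26.7 ± 1.45 CPM in clone 1, a larger fall (difference in response −1.36 ± 0.09, adjusted p = 9.99e-14). *Ltbp2* rose by 1.54 ± 0.05, 1.98 ± 0.05 and 2.02 ± 0.05. *Ltbp3*, of the same family, had a value of 0.99 ± 0.04 in WT, at the edge of the threshold, and rose by 1.08 ± 0.04 and 1.31 ± 0.04 in the clones. The WT value passed 1 without uninduced replicate 1 or 2 or without stimulated replicate 1 or 3. *Bmp1*, a procollagen and chordin protease gene, rose in WT (1.202 ± 0.04) and stood at −1.004 ± 0.04 in stimulated clone 2 relative to WT, a call that slipped to −0.98 without stimulated clone 2 replicate 3.

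Among the 11 receptor genes only *Acvrl1* was called in the WT response, and the other 10 lay between −0.80 and 0.81. The median of the 11 was 0.01 in WT, 0.40 in clone 1 and 0.32 in clone 2. The 2 core TGF-β receptors were not called in any comparison: group means ran from 321 to 752 CPM for *Tgfbr2* and from 35.0 to 78.4 CPM for *Tgfbr1*, whose level in uninduced cells was −0.86 ± 0.06 in clone 1 and −0.96 ± 0.06 in clone 2 relative to WT.

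*Acvr1b* encodes ALK4, the type I receptor of activins. WT libraries held 46.2, 38.7 and 37.2 CPM uninduced and 35.9, 39.0 and 35.6 CPM stimulated. In clone 1 the gene stood at 29.9, 30.3 and 29.6 CPM uninduced and 117, 129.5 and 122 CPM stimulated. Clone 2 libraries held 31.6, 30.5 and 32.3 CPM uninduced and 86.1, 93.6 and 90.1 CPM stimulated. Each uninduced clone library was below each uninduced WT library, and each stimulated clone library was above all WT libraries. *Acvr1b* had a log2 fold change of −0.14 ± 0.07 in WT, not called, and rose by 2.04 ± 0.07 in clone 1 and 1.51 ± 0.07 in clone 2. The response differed by 2.18 ± 0.10 (adjusted p = 8.60e-17) and 1.65 ± 0.10 (adjusted p = 6.26e-14). The gene lies on chromosome 15, whose 407 genes of at least 5 CPM had a median of 0.46 in uninduced clone 1 and clone 2, 0.45 and 0.43 in the stimulated clones, and −0.03 and −0.02 for the difference in response.

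*Tgfbr3* encodes betaglycan, a co-receptor that presents TGF-β2 and also binds inhibins. It held 80.8, 79.0 and 73.3 CPM in uninduced and 48.2, 44.7 and 40.7 CPM in stimulated WT libraries. In clone 1 it held 44.6, 47.4 and 43.2 CPM uninduced and 80.0, 99.1 and 93.4 CPM stimulated, and in clone 2 32.3, 32.2 and 37.7 CPM uninduced and 82.4, 95 and 94.2 CPM stimulated. The order of the genotypes turned over with stimulation, with WT above both clones before it and below both after, and without overlap on either side. The log2 fold change was −0.80 ± 0.08 in WT, short of the fold threshold, 1.013 ± 0.08 in clone 1 and 1.41 ± 0.08 in clone 2, and the response differed by 1.82 ± 0.11 (adjusted p = 1.18e-13) and 2.22 ± 0.11 (adjusted p = 2.34e-15).

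The calls of higher *Tgfbr3* in stimulated clones (1.03 ± 0.08 and 1.023 ± 0.08) sit at the fold threshold. Without stimulated WT replicate 3 both slipped to 0.97 and 0.96, and that of clone 1 was also lost without its stimulated replicate 2 (0.96) and that of clone 2 without its stimulated replicate 2 or 3. The clone 2 call was lost in 4 fits in all (0.96 to 0.997), with alternative processing counted beside left-out libraries. The response of clone 1 likewise slipped to 0.98 without uninduced replicate 3 and 0.96 without stimulated replicate 2. The adjusted p stayed below the threshold in all of these fits.

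*Acvr2a* encodes a type II receptor for activins and some BMPs. WT libraries held 11.5, 15.2 and 14.9 CPM uninduced and 12.5, 14.0 and 15.6 CPM stimulated. Clone 1 libraries held 27.4, 25 and 28.7 CPM uninduced and 26.0, 30.0 and 30.7 CPM stimulated, and clone 2 libraries 26.9, 27.7 and 27.0 CPM uninduced and 27.2, 30.7 and 31.4 CPM stimulated. Clone libraries were above all WT libraries in both treatments, and no genotype was called as responding. *Acvr2a* was higher in stimulated clone 1 (1.04 ± 0.11, adjusted p = 7.22e-10) and clone 2 (1.08 ± 0.11, adjusted p = 5.23e-10), the former slipping to 0.97 without stimulated WT replicate 1. Uninduced values of 0.95 ± 0.11 and 0.96 ± 0.11 were just short of the threshold, and passed it without uninduced WT replicate 2 or 3, and for clone 1 also without its uninduced replicate 2. The paralog *Acvr2b* was lower in stimulated clone 2 (−1.49 ± 0.31).

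*Acvrl1*, an endothelial type I receptor gene, had 29 counts in uninduced WT, 22 of them in replicate 1, and 1 count in stimulated WT, a ratio of 30.5 (counting interval 5.06 to 1247). Library values were 1.28, 0.210 and 0.114 CPM uninduced and 0, 0.0432 and 0 CPM stimulated. Clone 1 had 34 counts uninduced (0.717, 0.805 and 0.259 CPM) and 7 stimulated (0.0532, 0.221 and 0 CPM), and clone 2 had 31 (0.357, 0.310 and 0.464 CPM) and 2 (0, 0.131 and 0 CPM). In each clone the uninduced libraries were above the stimulated ones. The 8 endothelial markers summed to 5.09 to 7.92 CPM in uninduced and 0.389 to 0.636 CPM in stimulated WT libraries. Most of the uninduced sum was *Tek*, which went from 5.91 ± 0.860 to 0.257 ± 0.0833 CPM (SD, n = 3). *Pecam1* had 28, 2 and 3 counts in the uninduced WT libraries, highest in replicate 1 like *Acvrl1*, and 1, 1 and 0 in the stimulated ones. *Emcn* had 6 and 9 counts over the uninduced and stimulated WT groups, and *Tie1* and *Cldn5* were at 0 in both. The list thus did not move together. The part of cells expressing *Tek* or *Pecam1* was not tested. The WT fall of *Acvrl1* was lost without uninduced replicate 1 (adjusted p = 0.0718). The falls in clone 1 and clone 2 were each lost under DESeq2 and without any of 4 libraries, with adjusted p of 0.0525 to 0.111 and 0.0535 to 0.137. For clone 1 these were uninduced replicates 1 and 2 and stimulated replicates 1 and 3, and for clone 2 uninduced replicates 1 and 3 and stimulated replicates 1 and 3. Of the remaining receptor genes, *Acvr1*, encoding ALK2, rose in clone 1 (1.12 ± 0.07) and clone 2 (1.53 ± 0.07), with 0.81 ± 0.07 in WT, and *Eng* was higher in uninduced clone 1 (1.09 ± 0.06). *Bmpr1a* and *Bmpr2* were not called in any comparison.

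The signal-transducing SMAD genes were mostly steady. *Smad1*, *Smad2*, *Smad3*, *Smad4* and *Smad5* were not called in any of the 9 comparisons, and their log2 fold changes lay between −0.91 and 0.67. *Smad3* had the lowest value, at 57.8 ± 3.84 CPM in stimulated clone 1 against 108 ± 0.639 CPM in WT. Stimulation gave *Smad2* values of the same sign in every genotype (−0.57 ± 0.07, −0.67 ± 0.06 and −0.56 ± 0.06), none past the fold threshold.

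*Smad9* encodes SMAD8, one of the BMP SMADs. It held 7.92, 8.44 and 8.12 CPM in uninduced and 1.03, 0.993 and 0.767 CPM in stimulated WT libraries. In clone 1 it held 3.74, 3.11 and 4.30 CPM uninduced and 0.958, 0.369 and 1.59 CPM stimulated, and in clone 2 3.19, 2.57 and 3.94 CPM uninduced and 0.616, 0.654 and 0.782 CPM stimulated. Uninduced WT libraries were above all uninduced clone libraries, and the stimulated groups overlapped. *Smad9* fell in WT (−3.13 ± 0.31, adjusted p = 4.15e-10), clone 1 (−1.96 ± 0.32) and clone 2 (−2.22 ± 0.35), and was lower in uninduced clone 1 (−1.13 ± 0.27) and clone 2 (−1.34 ± 0.27). The smaller fall in clone 1 (1.17 ± 0.45, adjusted p = 0.0477) was lost when only the groups compared were fitted and without any of 9 of its 12 libraries (0.58 to 1.24), so that it rests on all but uninduced WT replicate 1, uninduced clone 1 replicate 3 and stimulated clone 1 replicate 2.

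Among intracellular inhibitors, the feedback genes were induced in the clones as in WT. *Pmepa1* encodes a membrane protein that sequesters receptor-activated SMADs. It went from 34.8, 34.9 and 39.6 to 1719, 1747 and 1589 CPM in WT libraries. It went from 23.1, 22.2 and 20.6 to 939, 914 and 866 CPM in clone 1 and from 15.9, 17.9 and 16.8 to 941, 886 and 863 CPM in clone 2. All stimulated libraries were far above all uninduced ones, and WT was above both clones within each treatment. The rises were 5.53 ± 0.06, 5.37 ± 0.07 and 5.74 ± 0.07, and the differences in response were −0.16 ± 0.08 and 0.21 ± 0.08, neither called. Relative to WT, *Pmepa1* stood at −0.74 ± 0.06 and −1.12 ± 0.06 in uninduced clones, the latter called, and at −0.89 ± 0.05 and −0.91 ± 0.05 in stimulated clones.

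*Skil* encodes SnoN, a SMAD corepressor. It went from 12.9, 11.3 and 11.4 to 92.5, 101 and 102 CPM in WT, from 6.61, 6.17 and 5.70 to 59.3, 66.5 and 65.0 CPM in clone 1 and from 7.43, 6.73 and 6.55 to 90.7, 94.2 and 97.9 CPM in clone 2. Stimulated clone 2 overlapped stimulated WT, and stimulated clone 1 lay below both. *Skil* rose by 3.06 ± 0.08 (adjusted p = 7.52e-24), 3.37 ± 0.09 and 3.75 ± 0.08, with differences in response of 0.30 ± 0.12 and 0.69 ± 0.11 that were not called. *Smad7*, the inhibitory SMAD that recruits SMURF ubiquitin ligases to the receptor, rose from 13.9 ± 2.00 to 40.6 ± 4.52 CPM in WT (1.55 ± 0.12), and by 1.21 ± 0.13 in clone 1 and 1.68 ± 0.12 in clone 2. *Ski* was called in the clones (1.26 ± 0.05 and 1.38 ± 0.05) and stood at 0.81 ± 0.05 in WT. *Smad6*, *Smurf1*, *Smurf2* and *Tgif1* were not called in any comparison, and *Bambi*, encoding a decoy receptor, was called only in stimulated clone 1 (1.26 ± 0.09 relative to WT).

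*Tgif2* encodes a homeodomain corepressor of SMADs. Libraries held 3.49, 2.73 and 1.68 CPM in uninduced and 0.734, 1.598 and 1.04 CPM in stimulated WT cells. They held 0.922, 0.215 and 0.932 CPM uninduced and 0.852, 0.701 and 0.592 CPM stimulated in clone 1, and 0.245, 0.221 and 0.174 CPM uninduced and 0.504, 0.196 and 0.601 CPM stimulated in clone 2. Uninduced clone libraries were below uninduced WT libraries without overlap, at −1.91 ± 0.48 (adjusted p = 0.00131) and −3.53 ± 0.54 (adjusted p = 1.87e-06). The other 3 calls, the WT fall (−1.21 ± 0.45), stimulated clone 2 relative to WT (−1.35 ± 0.54) and the difference in response of clone 2 (2.18 ± 0.77), were each lost with 1 library left out, with values of −0.95 to −1.13 (uninduced WT replicate 1, stimulated WT replicates 1 and 3), −1.01 to −1.47 (stimulated WT replicates 2 and 3, stimulated clone 2 replicates 1 and 2) and 1.89 to 2.31 (8 of 12 libraries). Of the exonic bases of *Tgif2*, 61.6% lie under exons of 5430405H02Rik or Gm37790, and the strand setting of the counting is not given in the sources used here, so shared reads cannot be assigned. In all, 18 members share exonic bases with another gene, up to 12.4% in those other than *Tgif2* and *Fstl3*.

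Among all members with counts in every group, secreted antagonists included, *Grem1* showed the largest difference between genotypes after stimulation. It encodes gremlin 1, which binds BMP2 and BMP4. WT libraries held 16.2, 17.2 and 17.3 CPM uninduced and 188, 187 and 184 CPM stimulated. Clone 1 libraries held 3.28, 2.15 and 0.777 CPM uninduced and 2.02, 1.33 and 1.00 CPM stimulated. Clone 2 libraries held 0.223, 0.266 and 0.406 CPM uninduced and 0.392, 0.196 and 0.0601 CPM stimulated. Every WT library was above every clone library in both treatments, and the stimulated libraries of each clone overlapped its uninduced ones. *Grem1* rose by 3.46 ± 0.17 in WT (adjusted p = 4.56e-12) and had values of −0.54 ± 0.35 in clone 1 and −0.30 ± 0.85 in clone 2, neither called. The difference in response was −4.00 ± 0.40 (adjusted p = 3.76e-07) and −3.75 ± 0.87 (adjusted p = 0.00277). Relative to WT it was −3.03 ± 0.24 and −5.93 ± 0.32 uninduced, and −7.03 ± 0.22 and −9.68 ± 0.30 stimulated. The clone 2 values rest on 23 counts over the uninduced and 11 over the stimulated group.

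*Fstl3* and *Fst* encode follistatin-like 3 and follistatin, which bind and neutralize activins. *Fstl3* held 0.408, 1.26 and 0.839 CPM in uninduced and 5.58, 6.65 and 6.13 CPM in stimulated WT libraries. It held 0.410, 0.375 and 0 CPM uninduced and 0.160, 0.0369 and 0.364 CPM stimulated in clone 1, and 0.178, 0.0886 and 0.0580 CPM uninduced and 0.112, 0 and 0.180 CPM stimulated in clone 2. Stimulated WT libraries stood above all others, while uninduced WT replicate 1 overlapped clone 1. *Fstl3* rose by 2.85 ± 0.49 in WT (adjusted p = 9.73e-06) and was −5.05 ± 0.59 and −5.85 ± 0.68 in the stimulated clones relative to WT (adjusted p = 1.75e-08 and 1.41e-08).

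The differences in *Fstl3* response were −3.38 ± 0.94 in clone 1 and −3.16 ± 1.12 in clone 2, with 5 to 15 counts in each clone group. The former was lost without uninduced clone 1 replicate 1 (−2.90, adjusted p = 0.0606), and the latter without stimulated WT replicate 2, uninduced clone 2 replicate 1 or stimulated clone 2 replicate 1 or 2 (−2.47 to −3.25). In uninduced cells *Fstl3* was −1.67 ± 0.64 in clone 1, which slipped to −1.29 without uninduced WT replicate 2 and −1.09 without uninduced clone 1 replicate 3 (adjusted p = 0.120 and 0.144), and −2.70 ± 0.67 in clone 2. Exons of *Prss57* cover 47.3% of its exonic bases, so reads there cannot be assigned without the strand setting. Its chromosome, 10, had medians of −0.41 and −0.43 in uninduced and stimulated clone 1 and of 0.07 and 0.05 in clone 2.

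*Fst* went from 26.8, 27.1 and 27.1 to 168, 166 and 158 CPM in WT libraries. It went from 63.2, 56.7 and 60.0 to 282, 286 and 280.4 CPM in clone 1 and from 32.9, 34.1 and 27.9 to 123, 117 and 117 CPM in clone 2. Stimulated libraries stood apart in the order clone 1, WT, clone 2, with no overlap. The rises were 2.60 ± 0.06, 2.24 ± 0.06 and 1.90 ± 0.06, and *Fst* was higher in uninduced clone 1 (1.15 ± 0.06). Set against each other per kilobase, *Inhba* exceeded *Fst* in stimulated WT cells by a ratio of 1.40 ± 0.0302, from 0.175 ± 0.0171 uninduced. The ratio was 0.109 ± 0.00860 in stimulated clone 1 and 0.327 ± 0.0366 in stimulated clone 2, and no stimulated clone library reached a stimulated WT library. These ratios describe RNA and were not tested.

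*Chrd*, encoding the BMP antagonist chordin, fell in WT (−1.46 ± 0.23), clone 1 (−1.0004 ± 0.22) and clone 2 (−1.59 ± 0.23). The clone 1 value sits on the threshold, and was under it in DESeq2 and 3 other settings and without uninduced replicate 2 or 3 or stimulated replicate 1 or 3 (−0.892 to −0.999). *Nog*, encoding noggin, and *Id4* fall outside the rule by which members were chosen for values in every library, and are named because their values stood out. *Nog* had 0 counts in all 6 WT libraries and 33 and 76 counts in uninduced and stimulated clone 1, which makes it at least 12.0-fold and at least 24.6-fold higher there. In clone 2 it had 2 counts uninduced and 0 stimulated.

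All 4 *Id* genes, which encode helix-loop-helix inhibitors of differentiation factors, fell in WT cells. *Id2* had the largest fall of the 4 and of all members tested. WT libraries held 67.9, 66.0 and 71.3 CPM uninduced and 2.01, 1.99 and 1.67 CPM stimulated. Clone 1 libraries held 19.1, 20.4 and 20.9 CPM uninduced and 1.54, 1.66 and 1.503 CPM stimulated, and clone 2 libraries 43.2, 43.1 and 40.0 CPM uninduced and 1.40, 1.63 and 0.842 CPM stimulated. Uninduced libraries stood apart in the order WT, clone 2, clone 1, and the stimulated libraries of all genotypes came together near the same low level, with WT narrowly highest. The falls were −5.18 ± 0.12 in WT (adjusted p = 7.21e-25), −3.67 ± 0.13 in clone 1 and −5.03 ± 0.14 in clone 2. The response of clone 1 differed by 1.51 ± 0.20 (adjusted p = 5.47e-07), alongside an uninduced level that was −1.76 ± 0.09 relative to WT, and that of clone 2 by 0.15 ± 0.22.

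*Id1* fell from 68.9 ± 2.78 to 26.8 ± 2.03 CPM in WT (−1.36 ± 0.09) with values of −0.51 ± 0.08 in clone 1 and −0.90 ± 0.08 in clone 2, neither called. *Id3* fell from 113 ± 15.2 to 49.2 ± 4.46 CPM in WT (−1.198 ± 0.08) with values of −0.82 ± 0.08 and −0.24 ± 0.07 in the clones, also not called. Stimulated clone libraries of both genes were above all stimulated WT libraries, at 0.80 ± 0.09 and 0.77 ± 0.09 for *Id1* and 0.52 ± 0.08 and 0.98 ± 0.08 for *Id3*, all short of the fold threshold. The clone 2 value of *Id3* passed it without stimulated WT replicate 2 (1.06) or without stimulated clone 2 replicate 3. *Id4* had 70 counts in uninduced WT, 4 in uninduced clone 1 and 212 in uninduced clone 2, with means of 1.15, 0.0683 and 2.50 CPM. It was called lower in clone 1 (−3.93 ± 0.70) and higher in clone 2 (1.12 ± 0.45), the latter lost without uninduced WT replicate 3 or any uninduced clone 2 library, or with no low-count filter (adjusted p 0.0502 to 0.105).

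**Figure D5:**
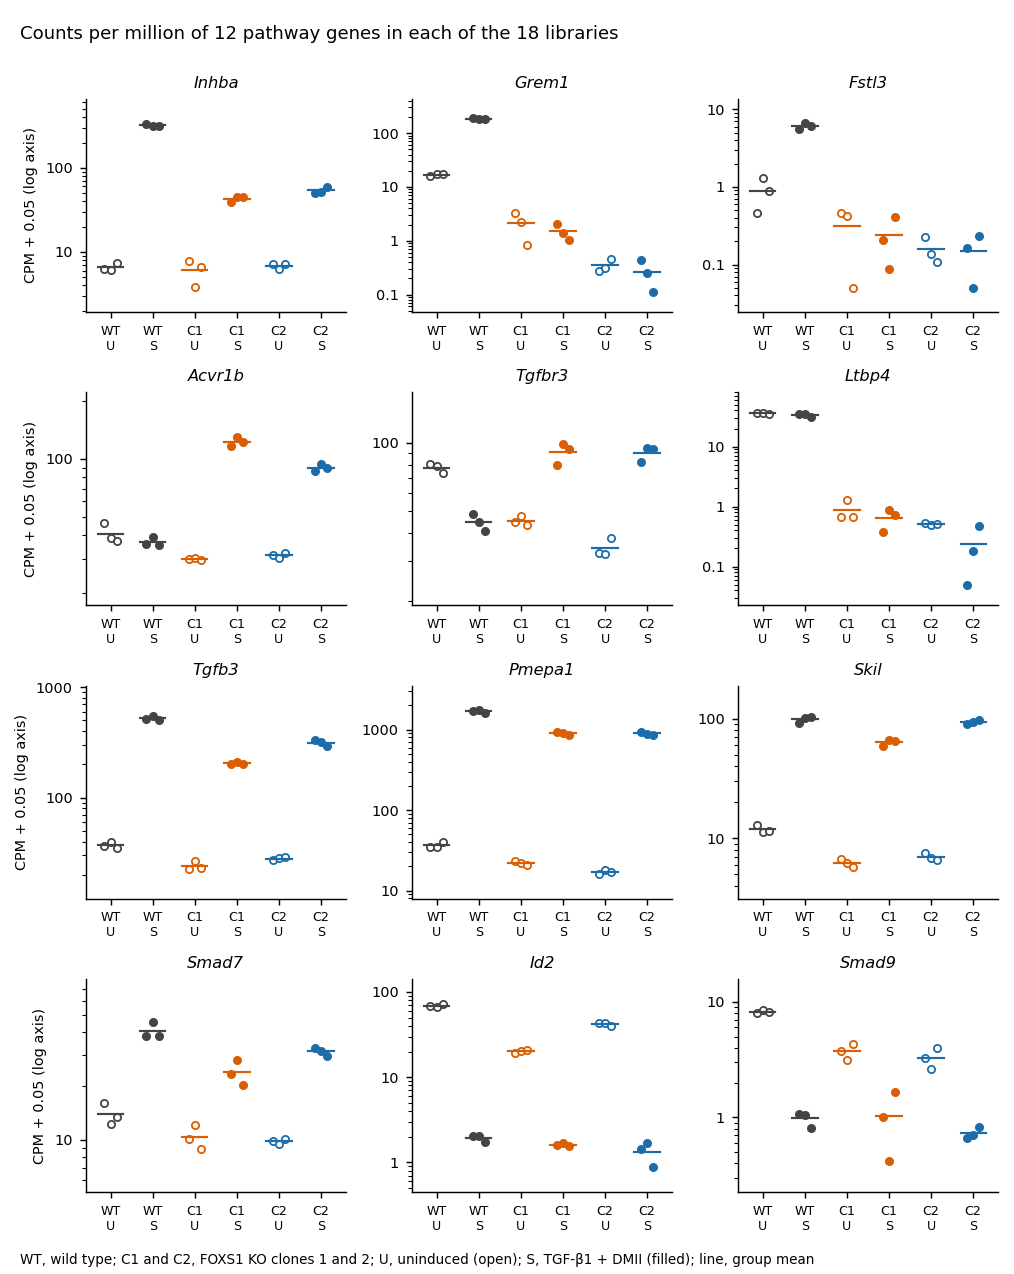
CPM + 0.05 (log axes) of 12 members in each of the 18 libraries, with open points for uninduced (U) and filled points for stimulated (S) libraries of WT and clones 1 and 2 (C1, C2), and lines at group means. *Grem1*, *Fstl3* and *Ltbp4* separate WT from both clones after stimulation, *Inhba* does so only after stimulation, *Acvr1b* and *Tgfbr3* reach their highest levels in the stimulated clones, and *Pmepa1* and *Skil* rise in every genotype.

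The 5 members whose response differed from WT in both clones were also looked at in sequence. *Inhba* (ENSMUSG00000041324) lies at chr13:16011851-16031621, *Tgfbr3* (ENSMUSG00000029287) at chr5:107106570-107289629, *Acvr1b* (ENSMUSG00000000532) at chr15:101174067-101213684, *Grem1* (ENSMUSG00000074934) at chr2:113746164-113758646 and *Fstl3* (ENSMUSG00000020325) at chr10:79777272-79782630, in GRCm38. RefSeq promoters of the build GRCm38.p6 were matched by symbol for 35 of the 50 members and for all of these 5 but *Tgfbr3*. The 250 bases before the RefSeq start are shown because their letters can be set beside the differences in response above. Capitals mark exact matches on either strand to CAGAC (the core of the SMAD element), GGCGCC (a GC-rich SMAD site), TGACTCA (an AP-1 site) or GTAAACA (a forkhead site), and no 2 of the matches overlap.
Inhba, plus strand, chr13:16011601-16011850: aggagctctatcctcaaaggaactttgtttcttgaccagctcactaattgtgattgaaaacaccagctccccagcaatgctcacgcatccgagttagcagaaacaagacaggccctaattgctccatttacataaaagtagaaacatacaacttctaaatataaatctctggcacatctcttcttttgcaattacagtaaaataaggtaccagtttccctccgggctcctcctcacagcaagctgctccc
Acvr1b, plus strand, chr15:101173822-101174071: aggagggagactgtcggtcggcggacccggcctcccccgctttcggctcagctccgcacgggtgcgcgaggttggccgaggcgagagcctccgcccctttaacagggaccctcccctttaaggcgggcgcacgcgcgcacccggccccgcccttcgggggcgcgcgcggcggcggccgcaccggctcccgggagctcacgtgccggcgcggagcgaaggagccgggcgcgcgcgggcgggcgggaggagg
Grem1, minus strand, chr2:113758649-113758898: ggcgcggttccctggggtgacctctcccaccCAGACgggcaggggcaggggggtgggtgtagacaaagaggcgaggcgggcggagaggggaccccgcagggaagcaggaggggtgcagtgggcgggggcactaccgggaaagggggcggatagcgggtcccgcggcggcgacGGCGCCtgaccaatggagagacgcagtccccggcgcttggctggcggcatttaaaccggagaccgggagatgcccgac
Fstl3, plus strand, chr10:79777024-79777273: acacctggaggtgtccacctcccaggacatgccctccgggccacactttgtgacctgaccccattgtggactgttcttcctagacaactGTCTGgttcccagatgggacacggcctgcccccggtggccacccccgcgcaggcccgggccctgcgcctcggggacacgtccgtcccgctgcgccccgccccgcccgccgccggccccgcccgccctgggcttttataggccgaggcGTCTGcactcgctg

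*Grem1* holds CAGAC once, starting 219 bases before the start, and GGCGCC once, starting 78 bases before it. *Fstl3* holds CAGAC 2 times, both as the reverse complement, starting 161 and 14 bases before the start. *Inhba* and *Acvr1b* hold none of the 4 in this window. Over all 32851 promoters of the table, the same window holds CAGAC in 42.2%, GGCGCC in 9.59%, TGACTCA in 4.46% and GTAAACA in 3.17%, so a match or its absence is a description only. The windows also differ in base composition, with 43.2% G and C in *Inhba* and 71.2% to 78.8% in the other 3.

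A further 84 genes of the pathway were listed, 56 of which were tested. Of 14 TGF-β target genes, 9 rose and none fell in WT (median 2.72), 9 rose and none fell in clone 1 (2.00), and 11 rose and 1 fell in clone 2 (2.19). Over all genes 6.25% rose and 13.6% fell in WT, 5.95% and 10.7% in clone 1, and 6.46% and 11.2% in clone 2. The medians over all tested genes were −0.04 in WT and −0.02 in each clone, and *Cdkn2b*, without counts in the clones, enters their medians as 0. Relative to stimulated WT, 2 of the 14 were higher and 7 lower in clone 1 (median −1.46), and 3 were higher and 6 lower in clone 2 (−0.74), and both medians are the same with *Cdkn2b* at its bound given below. The shares over all genes were 9.42% higher and 9.6% lower in clone 1, and 7.95% and 8.94% in clone 2. In uninduced cells, 1 of the 14 was higher and 7 lower in clone 1, and none higher and 8 lower in clone 2. Of all genes, 6.32% and 8.73% were so called in clone 1, and 5.54% and 9.56% in clone 2. The difference in response called 2 higher and 3 lower in clone 1, and 4 and 3 in clone 2. The shares of all genes there were 5.34% and 3.46%, and 4.89% and 2.96%. *Tsc22d1* (1.49 ± 0.04 and 1.64 ± 0.04) and *Sphk1* (1.10 ± 0.07 and 1.34 ± 0.07) were higher in both stimulated clones, and *Klf10* in clone 2 (52.9 against 18.7 CPM), and these 3 were named after their values were seen.

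*Ctgf*, encoding connective tissue growth factor, rose from 27.0 ± 3.02 to 371 ± 67.6 CPM in WT, and was lower in stimulated clone 1 (−2.09 ± 0.13) and −0.91 ± 0.13 in clone 2. *Col7a1* reached 166 ± 4.90 CPM in stimulated WT cells and 0.858 ± 0.270 and 1.31 ± 0.350 CPM in the clones, and *Itga11* 204 ± 14.7 CPM against 12.9 ± 3.92 and 0.327 ± 0.276 CPM. *Il11* was −4.26 ± 0.38 and −3.12 ± 0.35, and *Adam12* −2.18 ± 0.08 and −2.17 ± 0.08, in the stimulated clones relative to WT. *Ctgf*, *Col7a1*, *Itga11*, *Il11* and *Adam12* were also called lower in both uninduced clones. Of these genes, only *Col7a1* was called with a lower response in both clones.

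Clone libraries held little or no RNA of 2 of these targets in both treatments. *Tgfbi*, the TGF-β-induced matrix protein gene, stood at 246 ± 12.5 and 250.4 ± 18.6 CPM in uninduced and stimulated WT cells, at 3 and 6 counts over the clone 1 groups, and at 7.83 ± 0.406 and 0.425 ± 0.0861 CPM in clone 2. *Cdkn2b*, encoding the cell cycle inhibitor p15, had 2434 and 2332 counts over the WT groups and 0 in all 12 clone libraries, at least 588-fold lower after stimulation in clone 2 and at least 802-fold in clone 1.

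The other 5 lists were counted in the same way. In the WT response, of 8 tested genes for the release of latent TGF-β, 3 rose and none fell, of 7 other antagonists 2 rose and 3 fell, and of 18 other intracellular components 1 rose and 1 fell. Of 5 other ligands none was called, and of 4 other receptors 2 fell, where 6.25% of all genes rose and 13.6% fell. In the difference in response, the same lists had 0 and 3, 1 and 1, 0 and 0, 0 and 0, and 0 and 1 genes called higher and lower in clone 1, and 0 and 2, 1 and 0, 0 and 0, 1 and 0, and 0 and 1 in clone 2. Over all genes the shares were 5.34% and 3.46% in clone 1, and 4.89% and 2.96% in clone 2.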

How the data were processed

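RNA was sequenced as poly(A) libraries from 10T1/2 cells, 3 per group in 6 groups. The deposited table holds raw counts per gene and library, which the authors made by aligning paired-end reads with HISAT2 to mm10. For the counting program, annotation release and strand setting, the sources used here give nothing.

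Counts were fitted in edgeR 4.0.16 (R 4.3.3) with TMM scaling, filterByExpr at a minimum count of 10 by group and a robust quasi-likelihood test, adjusted by Benjamini-Hochberg over the 14317 of 54532 genes that passed, all 18 libraries sharing 1 fit. Calls needed a log2 fold change above 1 in absolute size and an adjusted p under 0.05. The fit was also run on simulated counts with a shared dispersion and set fold changes in stimulated clone 1. That run did not cover genes absent from a group. SEs are the log2 fold change over the root of its F. Levels between genes are CPM per kilobase of the gene length listed in the table. Chromosome medians use genes of at least 5 CPM. Intervals are 95% exact binomial.

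The members and lists were chosen with earlier results of these data known. Values in every library are given for members called the same way in both clones in 1 treatment, or in both differences in response, or in the WT response with an absolute log2 fold change above 2. Of the other listed genes (release of latent TGF-β, antagonists, intracellular components, ligands, receptors, TGF-β targets), at most 6 were named, those called the same way in both stimulated clones with the largest smaller change, with *Ctgf* and *Tgfbi*. A further gene covered by that rule is not reported here. Replicates of a group correlated at 0.963 to 0.993 in log2 CPM, and same-numbered libraries of different groups did not deviate together. The lowest replicate correlations, 0.963 and 0.969, both involved uninduced WT replicate 1, against 0.983 for replicates 2 and 3 of that group. Alternatives were DESeq2 1.42.0, its size factors, no filter, no fold threshold, only the groups compared, a replicate block and each library left out.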

Additional observations from a re-analysis of the deposited data

Results flagged for a closer look

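The members below are listed because the interaction term of the edgeR fit (Benjamini-Hochberg adjusted) called their response to TGF-β1 + DMII in a clone different from that in WT. Both clones share the WT libraries. In clone 1 the difference in log2 response was −2.75 for *Inhba*, −4.00 for *Grem1*, −3.38 for *Fstl3* and −1.36 for *Ltbp1*. It was 1.93 for *Inhbb*, 1.82 for *Tgfbr3*, 2.18 for *Acvr1b*, 1.17 for *Smad9*, 1.51 for *Id2* and 3.73 for *Id4*. In clone 2 it was −2.61 for *Inhba*, −3.75 for *Grem1*, −3.16 for *Fstl3*, 2.22 for *Tgfbr3*, 1.65 for *Acvr1b* and 2.18 for *Tgif2*. The positive values of *Inhbb*, *Id2*, *Smad9* and *Id4* in clone 1 and of *Tgfbr3* and *Tgif2* in clone 2 go with an uninduced level that was called lower in that clone than in WT. The calls of *Smad9* in clone 1, *Tgif2* in clone 2 and *Fstl3* in both clones are each lost with single libraries left out, and that of *Smad9* also with only the compared groups in the fit. The value of *Id4* rests on 4 counts in uninduced clone 1.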

How the results depend on the processing

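The number of members called stayed within 1.5 times its main value under DESeq2, DESeq2 size factors, no low-count filter, only the groups compared and the replicate block. Dropping the fold threshold raised it to 38 in the WT response, 36 and 39 in the responses of clone 1 and clone 2, 37 and 36 in the uninduced clones, 37 and 39 in the stimulated clones, and 31 and 27 in the differences in response. The shares over all genes were then 60.7%, 54.5% and 55.8% for the responses, 53.5% and 53.2% uninduced, 58.9% and 56% stimulated, and 31.6% and 31.2% for the differences. Members called in both clones then numbered 26 uninduced, 27 stimulated and 20 for the difference in response, beside 34.3%, 38.3% and 20.8% of all genes. Leaving out single libraries, the counts ran from 22 to 24 (WT response), 18 to 20 and 19 to 21 (clone responses), 10 to 12 and 9 to 11 (uninduced clones), 10 to 12 and 11 to 12 (stimulated clones) and 8 to 11 and 4 to 6 (differences in response), and from 5 to 7, 7 to 8 and 4 to 5 for both clones. No called member reversed sign under any of these. Of single-member values, 66 lost and 21 gained a call with a library left out while 3147 did not, and those behind named results are given with them. Same-numbered libraries of different groups correlated at −0.0412 to 0.0498 over 45 pairs in their deviations from group means. No deviation shared by number was seen, which cannot show whether same-numbered libraries were handled together. The replicate block changed 1 member call, the difference in response of *Gdf6* in clone 1 (−4.31 with the block). Depth limits *Bmp2*, *Gdf6*, *Bmp6*, *Ltbp4*, *Acvrl1*, *Grem1*, *Nog*, *Id4* and *Fstl3*, which had 15 or fewer counts in at least 1 group.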
